A study of Mus musculus with 4 samples.

Results

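Single-cell transcriptomes of the stroke-side brain hemisphere were compared between the library IL-1a TNFa C1q EV+MAPS and the library UT EV+MAPS. All mice were wild type and had an ischemic stroke, and both libraries came from mice that were given MAPS, hydrogel microparticles, carrying extracellular vesicles made by astrocytes. The implants were placed on day 5 after the stroke and the tissue was taken on day 14. The comparison asks what the cells of the injured hemisphere express when the vesicles come from astrocytes labelled IL-1a TNFa C1q instead of UT. The labels do not spell out UT, nor how many mice went into a library, nor the age or sex of the mice. The remaining libraries, MAPS (particles without vesicles) and IL-4 C1q EV+MAPS, are given as levels only. Each group was 1 library, so there is no replicate check and no p-value, and every interval below is a 95% interval that covers counting error only. Differences between the libraries cannot be told apart from differences between the mice or preparations behind them.

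The comparison covers 26008 cells of the 51075 that passed the same filters in all 4 libraries. A cell was kept if it held 1233 or more unique molecular identifiers (UMIs, each standing for 1 captured RNA molecule), 300 or more detected genes, and no more than 20% of its UMIs from mitochondrial genes. The UMI minimum is the lowest total of any barcode in IL-1a TNFa C1q EV+MAPS, whereas the other 3 libraries reach down to 500. It kept 14978 of 15138 barcodes of IL-1a TNFa C1q EV+MAPS and 11030 of 13076 of UT EV+MAPS. The kept cells had medians of 2608 and 3003 UMIs and of 1026 and 1182 genes, so the IL-1a TNFa C1q EV+MAPS cells were shallower. Their median mitochondrial shares were 0.55% and 0.53%. IL-4 C1q EV+MAPS was near both, at 2766 UMIs, 1093 genes and 0.55%. MAPS was not, at 4791 UMIs, 2119 genes and 1.36%, so its levels and shares are not a like-for-like baseline. The 2 compared libraries shared 58 cell barcodes, within the 43 to 64 of all 6 pairs of libraries. Cells were put into 22 classes by fixed marker genes, and 13 classes held at least 50 cells in both libraries and were compared gene by gene. In each of these 13, at least as many of the 10 leading genes were markers of the class itself as of any other class. The gates left out cells with markers of unrelated classes (9.34% of kept cells in IL-1a TNFa C1q EV+MAPS and 8.06% in UT EV+MAPS). They also left out cells between related classes (4.37% against 3.04%, ratio 1.44, 1.26 to 1.65) and cells with too few markers (2.12% against 1.78%).

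The trio of interleukin 1 alpha, tumour necrosis factor and complement C1q is released by activated microglia and drives astrocytes into a reactive state often called A1, known for complement C3 and antigen presentation genes and for harm to oligodendrocytes in culture. Stroke itself opens the blood-brain barrier, activates microglia and draws in monocytes, lymphocytes and neutrophils. Interferons act through STAT and IRF proteins that bind a repeated GAAA element, the interferon-stimulated response element. They switch on a shared set of genes: Isg15, a ubiquitin-like modifier; the Ifit family, which binds viral RNA; and Bst2 (tetherin), which holds budding virus at the cell membrane. Interferon gamma also switches on MHC class I and class II genes, whose products display peptides to T cells.

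The interferon genes are shown first because they were lower in the endothelium of IL-1a TNFa C1q EV+MAPS and higher in its oligodendrocytes and ventricle-lining cells. The windows below run from 250 bases before to 50 bases after the start of 3 of these genes (RefSeq, mouse GRCm38.p6), 5′ to 3′ along each gene. They were chosen after the values were seen, for being beyond 1.5-fold in opposite directions in different classes. Capitals mark matches to the element TTTCNNTTTC on either strand (GAAANNGAAA on the other), overlapping ones included. Isg15 lies on the minus strand at chr4:156200769-156201068 and holds 3 overlapping matches, Ifit3 on the plus strand at chr19:34583279-34583578 with 2, and Bst2 on the minus strand at chr8:71537423-71537722 with 2 that overlap.
Isg15: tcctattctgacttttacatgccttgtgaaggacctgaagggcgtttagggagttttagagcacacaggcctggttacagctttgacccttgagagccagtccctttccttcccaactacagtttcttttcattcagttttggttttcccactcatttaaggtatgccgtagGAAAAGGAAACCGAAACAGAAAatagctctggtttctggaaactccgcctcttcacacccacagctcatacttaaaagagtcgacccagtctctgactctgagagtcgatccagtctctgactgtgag
Ifit3: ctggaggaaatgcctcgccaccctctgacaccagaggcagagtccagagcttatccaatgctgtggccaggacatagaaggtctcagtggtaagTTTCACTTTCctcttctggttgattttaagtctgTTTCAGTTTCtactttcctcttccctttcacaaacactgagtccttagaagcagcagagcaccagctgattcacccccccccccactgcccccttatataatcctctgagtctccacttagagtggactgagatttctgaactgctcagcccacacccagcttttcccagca
Bst2: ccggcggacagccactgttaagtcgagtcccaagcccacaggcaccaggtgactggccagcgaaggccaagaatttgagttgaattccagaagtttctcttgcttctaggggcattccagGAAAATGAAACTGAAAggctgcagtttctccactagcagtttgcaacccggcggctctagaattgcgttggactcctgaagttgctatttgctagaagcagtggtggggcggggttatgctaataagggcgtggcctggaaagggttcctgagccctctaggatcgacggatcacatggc
The element was found in the windows of 13 of the 19 interferon list genes that have one (68.4%), in 3 of 13 MHC class I genes (23.1%) and in 1079 of all 27025 genes (3.99%). A match describes these letters and is not evidence of binding.

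Leukocytes took a larger share of the cells in IL-1a TNFa C1q EV+MAPS and vascular and glial cells a smaller one. T cells made up 9.49% of kept cells against 6.44% in UT EV+MAPS, a ratio of 1.47 (1.35 to 1.62). Their shares were 6.41% in MAPS and 4.99% in IL-4 C1q EV+MAPS, so the library compared here was the highest of the 4. B cells differed more, with 130 cells against 26 and a ratio of 3.68 (2.40 to 5.85), but MAPS was higher still at 1.25%. Dendritic cells, which carry antigen to T cells, were 146 cells against 42 (ratio 2.56, 1.81 to 3.70), and plasmacytoid dendritic cells, known as producers of type I interferon, were 50 cells against 10 (ratio 3.68, 1.85 to 8.14). Thinning every cell to the UMI minimum before gating brought the dendritic cell ratio to 1.47. NK cells had a ratio of 1.57 (1.12 to 2.22). All lymphocytes together had a ratio of 1.56 (1.43 to 1.69) and all peripheral leukocytes, without the Saa3-Apoc1 cells described next, 2814 cells against 1437 and a ratio of 1.44 (1.35 to 1.54).

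Cells with the markers Saa3 (an acute-phase serum amyloid), Apoc1 (an apolipoprotein) and Ccl8 (a chemokine) form a myeloid class that the labels do not name. They were 880 cells against 314, or 5.88% against 2.85% (ratio 2.06, 1.81 to 2.36). IL-4 C1q EV+MAPS had 3.18% and MAPS 0 of 12755 cells. The gate uses Saa3, which was itself higher over all cells of IL-1a TNFa C1q EV+MAPS (1152 against 222 CPM), and no cluster took the name of this class. Of the gated cells 76.4% and 78.3% lay in 1 cluster led by Apoc1, Saa3 and Apoc4, which held 1735 against 909 cells in all, a ratio of 1.41 (1.30 to 1.52), and also took 12.3% and 10.1% of gated microglia. Ependymal cells, which line the ventricles, were 188 against 77 (ratio 1.80, 1.37 to 2.38). Microglia, the resident macrophages, were 35.8% against 42.5% (ratio 0.843, 0.810 to 0.877). Endothelial cells (0.778, 0.711 to 0.851), astrocytes (0.755, 0.660 to 0.865) and oligodendrocytes (0.796, 0.733 to 0.864) also took smaller shares. Shares sum to 100%, so a larger share of one class lowers the others. UT EV+MAPS holds 1736 cells between 500 UMIs and the minimum and IL-1a TNFa C1q EV+MAPS holds none. A minimum of 500 UMIs took the neutrophil ratio from 1.91 to 1.02 and that of pericytes and smooth muscle from 0.653 to 0.314.

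**Figure D1:**
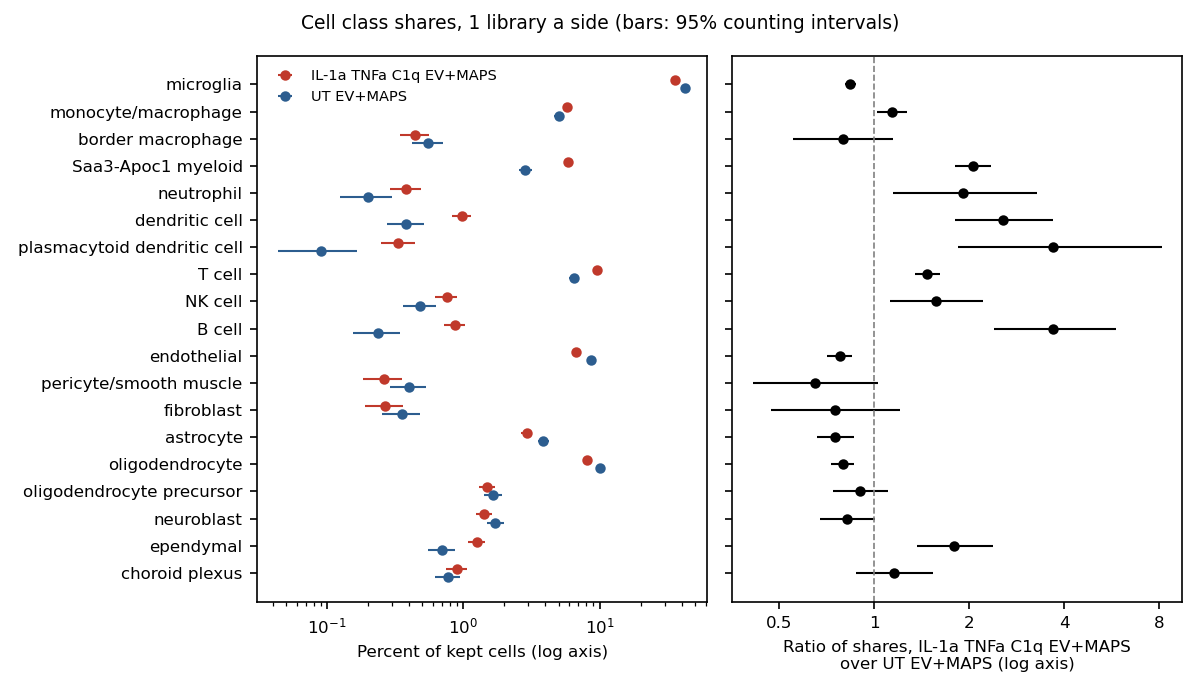
Left, percent of kept cells in each class (log axis) for both libraries; right, the ratio of the shares (log axis), with bars for 95% counting intervals. The points of T, B and dendritic cells and of Saa3-Apoc1 myeloid cells lie above 1, and those of microglia, endothelial cells, astrocytes and oligodendrocytes below 1 (0.755 to 0.843).

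Gene levels were compared as UMIs per 1000000 UMIs of the class (CPM). Ratios of IL-1a TNFa C1q EV+MAPS over UT EV+MAPS moved with transcript length: in the endothelium the median log2 ratio was 0.17 over the shortest of 20 length groups and -0.22 over the longest, and in oligodendrocytes 0.14 and -0.29. Each ratio was therefore also divided by this trend, and the ratios below are these length-adjusted ones. A gene is called beyond 1.5-fold where its whole interval lies beyond 1.5-fold both before and after that division, among genes with at least 50 UMIs. UMIs of 1 cell are not independent, so a gene with most of its UMIs in 1 cell can pass this rule, and the cells behind such a gene are given.

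**Figure D2:**
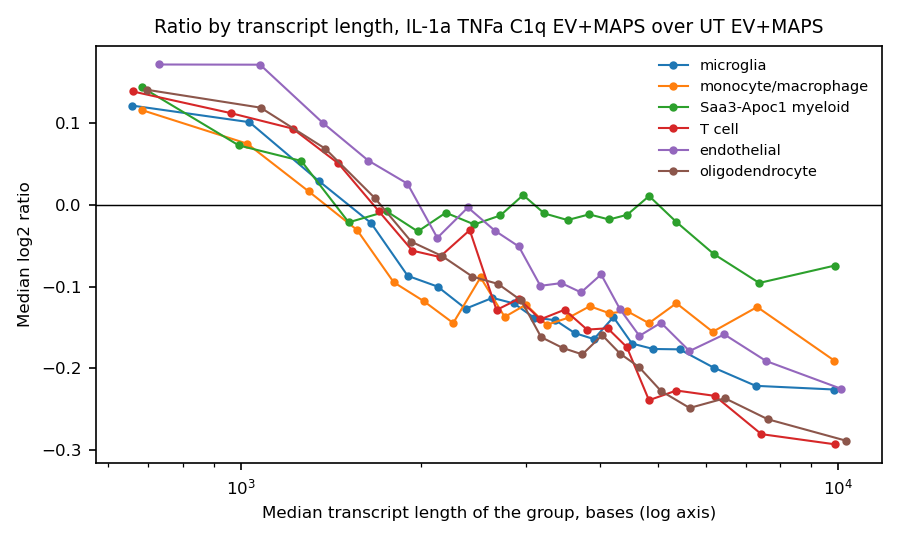
Median log2 ratio of genes in 20 groups of transcript length (log axis), one line for each of 6 classes (microglia, monocytes and macrophages, Saa3-Apoc1 cells, T cells, endothelial cells and oligodendrocytes). These lines run from between 0.12 and 0.17 in the shortest group down to between -0.29 and -0.07 in the longest.

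Endothelial cells of IL-1a TNFa C1q EV+MAPS had less of the interferon genes. Of 25 genes on the interferon list, 24 were measured, 0 were above their length trend and 15 were beyond 1.5-fold lower, with a median log2 ratio of -1.11 against 0.00 over all 7449 genes tested. Over the whole class, 45 genes were lower beyond 1.5-fold (0.604%) and 14 higher (0.188%). Isg15 was at 667 CPM against 1805 in UT EV+MAPS, 146 in MAPS and 2872 in IL-4 C1q EV+MAPS. Its ratio was 0.33 (0.31 to 0.35), and the UMIs were spread over 620 of 1004 cells and 847 of 950 cells. Ifit3 was at 130 CPM against 381 (0.33, 0.29 to 0.37), with 83.8 in MAPS and 962 in IL-4 C1q EV+MAPS. Ifit3b, a close copy of Ifit3 with which it may share reads, had a ratio of 0.26 (0.20 to 0.33), and Ifit2 one of 0.27 (0.18 to 0.38). In each of these 4 genes IL-4 C1q EV+MAPS was the highest library, and IL-1a TNFa C1q EV+MAPS lay below UT EV+MAPS.

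The summed level of the interferon list in the endothelium was 3369 CPM in MAPS (112 cells), 5711 in IL-1a TNFa C1q EV+MAPS, 10264 in UT EV+MAPS and 20241 in IL-4 C1q EV+MAPS. Their counting intervals do not overlap, but these intervals treat each UMI as independent and hold no spread between mice. In all other cells Isg15 was at 147 against 180 CPM, so its difference was larger within the endothelium than outside it. The fourth gene named by the fixed ranking after Isg15, Ifit3b and the library-wide gene Brd1 was Tgtp1, an interferon-induced GTPase, at 3.21 against 19.4 CPM (0.17, 0.074 to 0.35). Genes outside the list that are known interferon targets, chosen after their values were seen, were lower beyond 1.5-fold too. They included Iigp1, a GTPase that attacks parasite vacuoles (58.6 against 144 CPM), Gbp3, a guanylate-binding protein (52.8 against 106 CPM), and Slfn2, a regulator of immune cell quiescence (52.1 against 125 CPM). Of the 45 lower genes, 41 were also beyond 1.5-fold without their largest cell, 39 in the largest endothelial cluster alone, 44 without called doublets and 25 after thinning. The list median lay between -1.21 and -1.02 under all alternatives.

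MHC class I genes were mostly a little lower in the same cells: 13 of 14 measured were below the trend, 0 were beyond 1.5-fold and the median log2 ratio was -0.23. The endothelial markers themselves summed to 19155 against 19855 CPM. Of 16 measured blood-brain barrier genes, 0 were beyond 1.5-fold (median -0.07). Sox18, a transcription factor of vascular development, was at 146 CPM against 261 (0.54, 0.48 to 0.61) and was chosen after its values were seen.

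Chemokine and MHC class II genes were higher in the endothelial class, at low levels. Ccl5, a chemokine for T cells and monocytes, was at 123 against 16 CPM (6.81, 5.01 to 9.44), with 78 of 344 UMIs in 1 of 137 cells. Cd74, the invariant chain of MHC class II, was at 114 against 46.4 CPM, while all other cells had 3424 against 2334 CPM. All 14 genes higher beyond 1.5-fold in this class had a lower CPM here than in all other cells of IL-1a TNFa C1q EV+MAPS, so none was named by the fixed ranking, and the chemokine and MHC class II genes are given from their lists. Of 12 measured chemokine ligands 7 were beyond 1.5-fold higher, with a median log2 ratio of 1.08 that was 0.24 after thinning, 0.33 in classes from clusters and 0.45 in the largest cluster. Cxcl9 had 63 of its 84 UMIs in 1 cell. Markers of other cells were also higher in this class: the 3 Saa3-Apoc1 markers summed to 89.3 against 29.7 CPM, border macrophage markers (4 and 3 of 8 with a UMI) to 75.0 against 32.7 CPM, and T cell markers (10 and 7 of 10) to 32.5 against 14.0 CPM. Their part in these chemokine and MHC class II values was not tested.

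**Figure D3:**
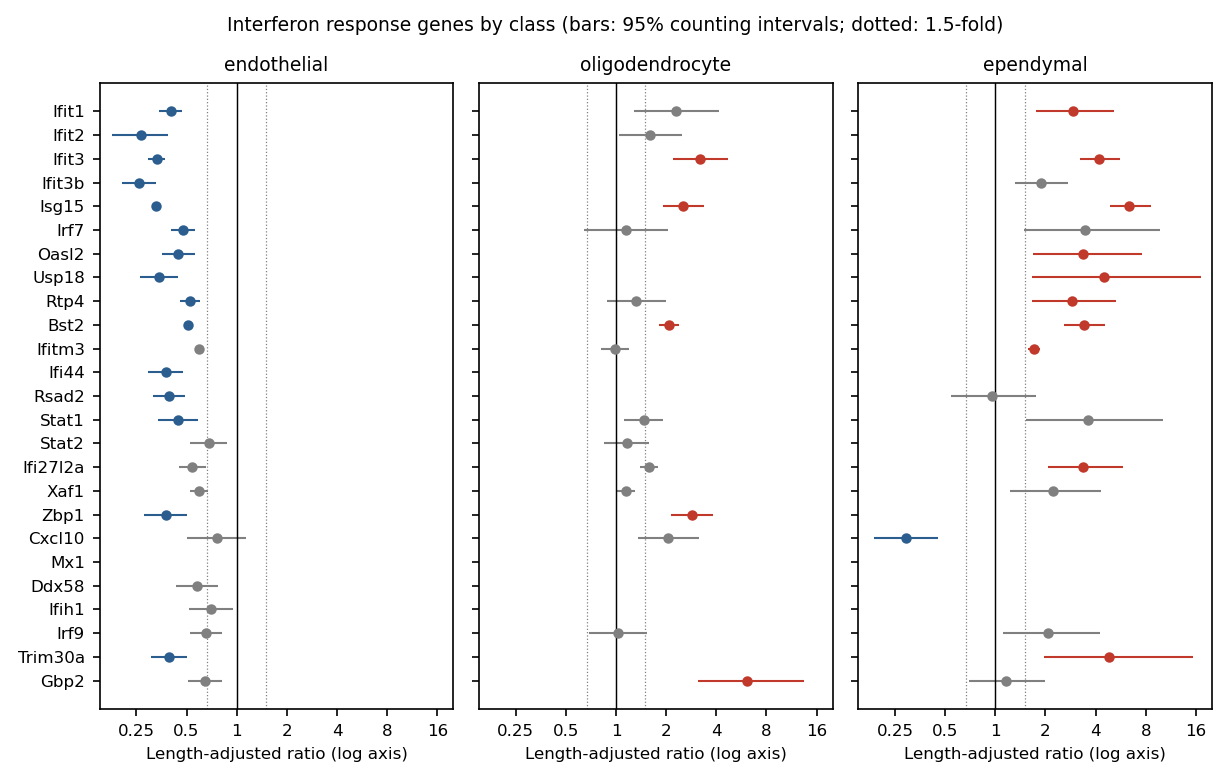
Length-adjusted ratio (log axis) of each measured gene of the interferon list in endothelial, oligodendrocyte and ependymal cells, with 95% counting intervals; dotted lines mark 1.5-fold, and blue and red points are beyond it. All 24 endothelial points lie below 1, while 15 of 16 oligodendrocyte and 16 of 18 ependymal points lie above 1.

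In oligodendrocytes, the myelin-forming cells, interferon and MHC class I genes were higher in IL-1a TNFa C1q EV+MAPS. Of 16 measured interferon genes 15 were above their trend and 5 beyond 1.5-fold (Bst2, Isg15, Zbp1, Ifit3 and Gbp2), with a median log2 ratio of 0.67 against 0.00 over 8647 genes. Over the class, 32 genes were higher beyond 1.5-fold (0.37%) and 11 lower (0.127%). Bst2 was at 133 CPM against 58.1 (2.08, 1.81 to 2.40), with 8.13 in MAPS and 144 in IL-4 C1q EV+MAPS. Isg15 was at 38.2 against 13.8 CPM (2.52, 1.91 to 3.37), in 65 of 1203 and 42 of 1113 cells. In all other cells Isg15 was at 189 against 326 CPM, the opposite direction. Ifit3 was at 24.6 against 7.75 CPM (3.18, 2.21 to 4.68), and Zbp1, a sensor of nucleic acids that can trigger cell death, at 35.3 against 14.0 CPM. Gbp2, a guanylate-binding protein, had a ratio of 6.12 (3.09 to 13.49) from 54 and 10 UMIs.

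All 12 measured MHC class I genes were above their trend and 6 were beyond 1.5-fold, with a median of 0.97 and a summed level of 2013 against 1325 CPM (606 in MAPS, 1301 in IL-4 C1q EV+MAPS). The heavy chain gene H2-K1 was at 215 against 125 CPM (1.76, 1.59 to 1.94), in 379 and 291 cells. Psmb8, a subunit of the immunoproteasome that cuts peptides for MHC class I, was at 200 against 84.7 CPM (2.43, 2.17 to 2.72), and Tap1, a subunit of the pump that carries these peptides into the endoplasmic reticulum, at 12.8 against 5.23 CPM (2.75, 1.72 to 4.49). In all other cells H2-K1 was at 823 against 802 CPM and Tap1 at 26.7 against 27.2 CPM. The first 4 genes by the fixed ranking were Iigp1 (42.3 against 14.0 CPM, 0.956 in MAPS and 20.0 in IL-4 C1q EV+MAPS), Igtp, another interferon-induced GTPase (40.3 against 19.2 CPM), Tmem140 (34.5 against 13.4 CPM; its ratio was 1.07 after thinning) and Fxyd7, a regulator of the sodium pump (48.3 against 16.7 CPM). The Iigp1 ratio was 3.37 (2.56 to 4.47) here, against 0.43 (0.36 to 0.52) in the endothelium.

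The oligodendrocyte values rest on low counts. Of the 32 higher genes, 27 were also beyond 1.5-fold without their largest cell, 26 in the largest cluster alone and 26 without called doublets, but 6 after thinning, when the interferon list had 8 measured genes, 7 of them above the trend, and a median of 0.31. Microglial markers (9 of 9 with a UMI in both libraries) summed to 147 against 141 CPM in this class. Monocyte/macrophage markers (7 of 9 in both) summed to 23.1 against 13 CPM, Saa3-Apoc1 markers (3 of 3) to 78.0 against 27.9 and neutrophil markers (6 and 4 of 9) to 27.9 against 4.46. Their part in the interferon and MHC class I values was not tested. Of 14 myelin genes 0 were beyond 1.5-fold and the median was 0.01. The clearest lower genes besides Brd1 and Csnk2a2, described at the end, were Qk, an RNA-binding protein needed for myelination (742 against 1657 CPM, with 2268 in MAPS and 1685 in IL-4 C1q EV+MAPS), and Nrn1l at 5.78 against 14.1 CPM.

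Ependymal cells gave the highest interferon median of the 10 classes in which at least 4 of its genes were measured. Of 18 measured genes 16 were above their trend and 10 beyond 1.5-fold higher, with a median log2 ratio of 1.59 and a summed level of 5633 against 2394 CPM (1017 in MAPS and 3338 in IL-4 C1q EV+MAPS). Over the class, 22 of 4241 genes were higher beyond 1.5-fold (0.519%) and 7 lower (0.165%). Isg15 was at 843 against 122 CPM (6.38, 4.85 to 8.56), in 99 of 188 and 19 of 77 cells, and IL-4 C1q EV+MAPS had 296 and MAPS 42.2. Ifit3 was at 607 against 138 CPM (4.22, 3.24 to 5.57), Usp18, the protease that removes Isg15 from proteins, at 42.3 against 9.04 CPM, and Trim30a at 52.7 against 11.3 CPM. IL-1a TNFa C1q EV+MAPS was the highest of the 4 libraries in each of these 4 genes. Cxcl10, an interferon-induced chemokine, went the other way, at 33.7 against 115 CPM, with 46 of the 51 UMIs of UT EV+MAPS in 1 cell. Of 7 measured MHC class I genes 7 were above the trend and 3 were beyond 1.5-fold (H2-D1, H2-K1 and H2-T23), the median being 0.99. H2-K1 was at 435 against 176 CPM. Saa3-Apoc1 markers (3 and 2 of 3 with a UMI) summed to 157 against 72.3 CPM in ependymal cells and neutrophil markers (4 and 2 of 9) to 16.4 against 4.52, while microglial markers (9 of 9) were at 173 against 190 and monocyte/macrophage markers (7 and 2 of 9) at 30.2 against 42.9. Their part in the interferon and MHC class I values was not tested.

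The first ependymal genes by the fixed ranking were secreted proteins in few cells. Spp2 had 233 UMIs in 10 cells against 0 UMIs, at least 29.7-fold more from a floor of 3 counts in UT EV+MAPS, and Wfdc2 had 388 UMIs in 13 cells against 2. MAPS had both, at 234 and 180 CPM. Wfdc2 is also a leading gene of the choroid plexus class, whose markers (5 and 3 of 6 with a UMI) summed to 324 against 303 CPM in ependymal cells; their part in these values was not tested. Choroid plexus cells, which make cerebrospinal fluid, had 5 measured interferon genes, all above the trend and 4 beyond 1.5-fold (Bst2, Ifitm3, Isg15 and Ifi27l2a), with a median of 1.09. Their list summed to 1993 against 870 CPM, with 1018 in MAPS and 2256 in IL-4 C1q EV+MAPS. Bst2 was at 730 against 338 CPM there. In the same cells microglial markers (9 of 9 with a UMI) summed to 141 against 87.9 CPM, Saa3-Apoc1 markers (3 of 3) to 203 against 155 and monocyte/macrophage markers (4 and 1 of 9) to 135 against 109, and their part in these values was not tested. In this class 11 of 2289 genes were higher beyond 1.5-fold (0.481%) and 8 lower (0.349%), and in all 8 lower genes 1 cell held over 25% of the UMIs. The named higher gene Id3, an inhibitor of differentiation, was at 670 against 301 CPM (2.27, 1.91 to 2.71), but its ratio was 1.07 after thinning, and Fabp7 had 115 of its 118 UMIs in 1 cell.

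Of the 45 endothelial lower genes, 8 were among the 32 oligodendrocyte higher genes, 17.8% and 25% of the sets, and 4 of these are on the interferon list. Of the 45, 25 were measured in oligodendrocytes, and of the 32, 26 in the endothelium. Ependymal cells shared 8 higher genes with the endothelial lower set, 36.4% of their 22 and 17.8% of the 45, and all 8 are on the list. Here 24 of the 45 and 17 of the 22 were measured in the other class. The test of the difference between classes needs replicate libraries and was not possible here.

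**Figure D4:**
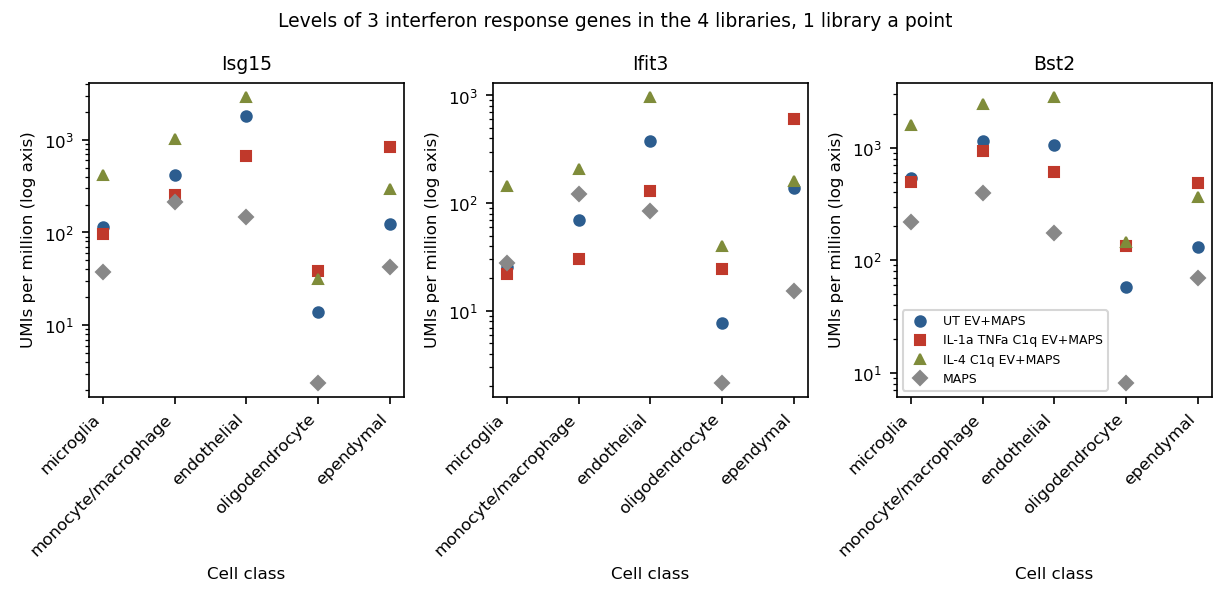
CPM (log axis) of Isg15, Ifit3 and Bst2 in 5 classes, 1 point a library. In the endothelium IL-1a TNFa C1q EV+MAPS lies above MAPS and below both other libraries for all 3 genes, and in ependymal cells it is the highest.

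Microglia, with 5361 and 4685 cells, had interferon genes slightly lower and MHC class II genes slightly higher. Of 24 measured interferon genes 22 were below the trend (median -0.38), and only Rtp4, at 23.2 against 42.9 CPM (0.57, 0.50 to 0.65), was beyond 1.5-fold. All 10 measured MHC class II genes were above the trend and 0 beyond 1.5-fold (median 0.33), with H2-Aa at 361 against 244 CPM and Cd74 at 1300 against 957 CPM. Over the class, 27 of 11000 genes were higher beyond 1.5-fold (0.245%) and 22 lower (0.2%). Heat shock genes were below the trend in 14 of 14 cases with 0 beyond (median -0.29). Homeostatic microglia genes had a median of -0.01, but 9 of these 13 genes are markers of the gate, which selects cells on them. In the largest cluster of gated microglia the median was 0.02. With classes from clusters 0 of the 13 were above the trend and 0 beyond 1.5-fold, with a median of -0.18.

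Of 18 measured chemokine ligands in microglia 3 were beyond 1.5-fold. Ccl5 was at 608 against 267 CPM (2.09, 2.02 to 2.17), with 277 in MAPS and 201 in IL-4 C1q EV+MAPS, in 1894 and 1181 cells. Ccl7, a monocyte chemokine, was at 34.8 against 18.3 CPM, and Cxcl13, which attracts B cells, at 17.0 against 3.95 CPM (4.1, 3.08 to 5.53) in 56 and 17 cells. In the largest microglial cluster alone the Cxcl13 ratio was 0.84. Clusters of microglia differed in size between the libraries: the cluster led by Ccl2, Ccl3 and Il1a held 37.3% of gated microglia against 28.1%, and the one led by Slc2a5 and P2ry12 40.6% against 51.2%. Of the 27 higher genes 6 were also beyond 1.5-fold in the largest cluster alone, and 11 after thinning. The other named genes were Lox, which crosslinks collagen (4.74 against 1.19 CPM, 67 and 17 cells), Xlr3b (3.57 against 0.857 CPM), Cxcl11 (43 and 14 UMIs) and, lower, Mir6236 (86.2 against 152 CPM).

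Saa3-Apoc1 myeloid cells had some chemokines higher and 4 TNF and NF-kB genes lower. In this class 30 of 6324 genes were higher beyond 1.5-fold (0.474%) and 18 lower (0.285%). Ccl5 was at 3953 CPM against 852, with 931 in IL-4 C1q EV+MAPS (4.20, 4.01 to 4.40), in 783 of 880 and 205 of 314 cells. Of 16 measured chemokine ligands 10 were above the trend, 5 beyond 1.5-fold higher (Ccl8, a gate marker of the class, among them) and 1 lower (Cxcl2), with a median of 0.12 that was -0.01 in the largest cluster. Ccl2, the main monocyte chemokine, was at 288 against 130 CPM (2.12, 1.87 to 2.41), Cxcl13 had 60 UMIs against 1, and Ccl7 had 193 of its 309 UMIs in 1 cell. Of 18 measured TNF and NF-kB genes 12 were below the trend, 4 beyond 1.5-fold lower and 1 higher (Ccl2), with a median of -0.38. Tnf itself was at 29.4 against 84.7 CPM (0.35, 0.28 to 0.44) and 59.5 in IL-4 C1q EV+MAPS. Nfkbia, the inhibitor that NF-kB induces against itself, was at 448 against 863 CPM (0.53, 0.49 to 0.56), and Nfkbiz at 56.6 against 123 CPM. Of 18 immediate early genes, which many stimuli and tissue dissociation also induce, 15 were below the trend (median -0.40), with Ier2 beyond 1.5-fold at 248 against 587 CPM.

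By the fixed ranking the named higher genes of this class were Marco, a scavenger receptor (70 UMIs in 11 cells against 0 UMIs, at least 10.1-fold from the floor of 3 counts), Bex1 (105 UMIs in 12 cells against 1, with 48 in 1 cell), Cxcl13 and Ccl5. The Bex1 ratio was 0.503 after thinning, the other direction, and 2.11 and not beyond 1.5-fold in the largest cluster. The named lower genes were Tnfsf9, a T cell costimulator (7.54 against 27.8 CPM), Tnf, Tubb6 (7.54 against 20.2 CPM) and Lpl, lipoprotein lipase (126 against 241 CPM; 0.53, 0.47 to 0.59). The Tubb6 ratio was 0.873 after thinning and 0.428 in the largest cluster, beyond 1.5-fold in neither. Of the 30 higher genes 20 were also beyond 1.5-fold without their largest cell and 3 after thinning. Of the 18 lower genes these counts were 14 and 5.

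Monocytes and macrophages had lower interferon and proliferation genes. In this class 84 of 7058 genes were lower beyond 1.5-fold (1.19%) and 46 higher (0.652%). Of 24 measured interferon genes 21 were below the trend and 6 beyond 1.5-fold (median -0.65). Among the 4 most different, Rsad2 was at 18.9 against 60.3 CPM (0.34, 0.26 to 0.44), with 65 of 232 UMIs of UT EV+MAPS in 1 cell, and Ifit3 at 30.1 against 70.4 CPM (0.45, 0.36 to 0.56). Mx1, an antiviral GTPase, had a ratio of 0.33 from 26 and 76 UMIs, and Rtp4 was at 34.8 against 74.1 CPM. Of 12 proliferation genes 0 were above the trend and 4 beyond 1.5-fold lower (median -0.76), with Birc5, an inhibitor of apoptosis in dividing cells, at 30.7 against 69.4 CPM. With classes from clusters 2 of 14 measured proliferation genes were above the trend, 0 were beyond 1.5-fold and the median was -0.31. In the largest cluster alone 0 of 12 were above the trend, 6 were beyond 1.5-fold lower and the median was -1.07. Of 15 genes of phagocytosis and lipid handling 12 were below the trend and 1 (Cd36) was beyond 1.5-fold lower, with a median of -0.23 that was -0.02 in the largest cluster.

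Mmp12, a macrophage elastase, was at 35.3 against 208 CPM (0.19, 0.16 to 0.22), in 20 and 70 cells. Lpl was at 111 against 415 CPM (0.29, 0.27 to 0.33), in 122 and 191 cells, and Npy at 20.5 against 89.4 CPM. Ctsk had a ratio of 0.28, with 308 of the 750 UMIs of UT EV+MAPS in 1 cell. On the higher side, Ifitm1, an interferon-induced membrane protein, was at 163 against 28.3 CPM (5.39, 4.40 to 6.66), Ccl17, a dendritic cell chemokine, at 78.3 against 14.3 CPM (5.06, 3.8 to 6.85), Ly6i at 68.8 against 16.1 CPM, and Gal had 195 UMIs in 11 cells against 41. The Ly6i ratio was 4.14, but 1.78 and not beyond 1.5-fold after thinning, and 7.57 in the largest cluster. The cluster led by Mmp12, Fabp4 and Anxa1 held 54.7% of gated cells of this class against 72.5%, and the one led by Ccl17, Cd209a and Ccl22 25.3% against 13.6%. In the largest cluster alone, 55 of the 84 lower genes and 18 of the 46 higher genes were also beyond 1.5-fold, and after thinning 13 and 9.

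T cells had 3 genes of the proliferation list higher beyond 1.5-fold, which were not beyond it in the largest T cell cluster alone. In this class 31 of 5980 genes were higher beyond 1.5-fold (0.518%) and 12 lower (0.201%). All 11 measured proliferation genes were above the trend and 3 beyond 1.5-fold (median 0.65). Ube2c, which marks mitotic cyclins for destruction, was at 87.2 against 9.49 CPM (9.57, 5.70 to 17.35), in 41 of 1422 and 8 of 710 cells, with 167 in MAPS and 107 in IL-4 C1q EV+MAPS. Birc5 was at 77.5 against 18.3 CPM (4.64, 3.14 to 7.08). Outside the list, Cdkn3 had 53 UMIs against 1 and Cdca3 62 against 2, both also higher beyond 1.5-fold. The cluster led by H1f5, H2bc11 and Ska1, which also has Birc5 and Pclaf among its leading genes, held 37 of the gated T cells (2.60%) against 8 (1.13%). In the largest cluster, led by Ctla4, Tnfrsf4 and Cd40lg, 6 proliferation genes were measured and 0 were beyond 1.5-fold, with a median of 0.24; the ratio of Birc5 was 1.16 there and that of Cdca3 1.11. After thinning the list median was 0.35 and 1 gene, Ube2c, was beyond. All 12 measured heat shock genes were below the trend with Hspa1b beyond 1.5-fold, at 29.7 against 81.0 CPM (median -0.46).

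Trdv4 and Trgc2, segments of the gamma-delta T cell receptor, were at 56.2 against 108 CPM and 14.4 against 34.2 CPM, and the cluster led by Trdc and Trgc1 held 10.8% of gated T cells against 18.2%. MHC class II genes had a median of 1.30 in 6 measured, 4 of them beyond 1.5-fold. Cd74 was at 192 against 71.5 CPM in T cells and at 3433 against 2259 CPM in all other cells, and the median was 0.75 without called doublets and 0.37 in classes from clusters. Saa3-Apoc1 markers (3 of 3 with a UMI) summed to 120 against 41.8 CPM in T cells, neutrophil markers (6 and 4 of 9) to 50.5 against 10.1 and microglial markers (9 of 9) to 174 against 145. Monocyte/macrophage markers (7 and 6 of 9) were at 378 against 399 CPM. Their part in the MHC class II values was not tested. Cytokine genes were higher in few cells: Il4 had 53 UMIs in 11 cells, 30 of them in 1, and Csf2 had 43 of 101 UMIs in 1 cell. Both were chosen after their values were seen.

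**Figure D5:**
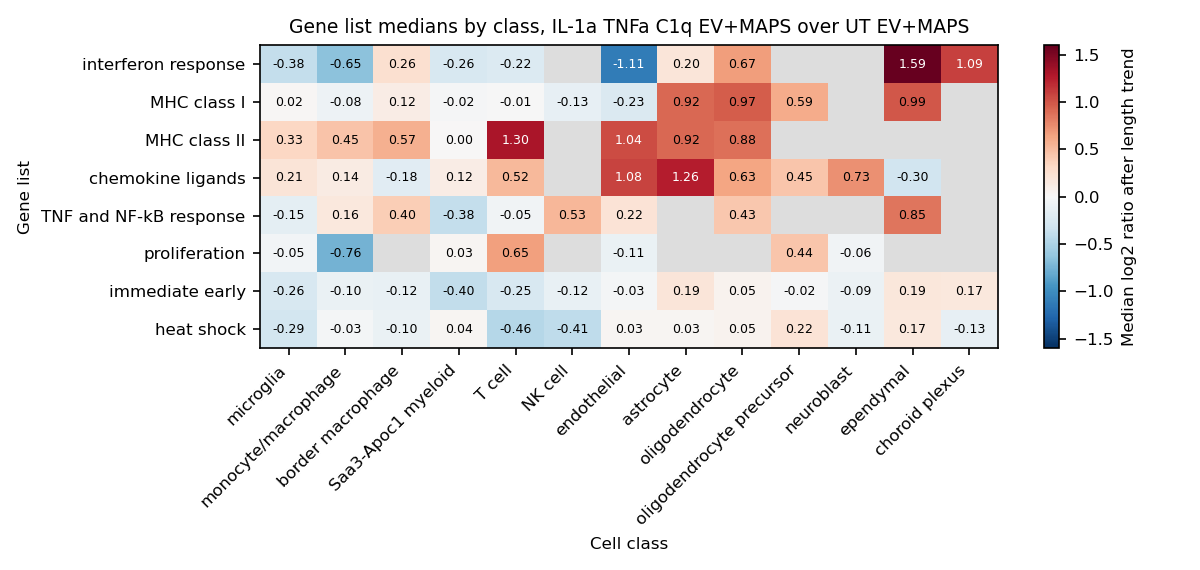
Median length-adjusted log2 ratio of 8 gene lists (rows) in the 13 classes (columns), red for higher and blue for lower in IL-1a TNFa C1q EV+MAPS; grey cells had fewer than 4 measured genes. The interferon row runs from -1.11 in endothelial to 1.59 in ependymal cells.

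Astrocytes, the cell type of the vesicles' origin, showed higher A1 genes in few cells. In this class 25 of 4777 genes were higher beyond 1.5-fold (0.523%) and 15 lower (0.314%), and in 14 of the 25 a single cell held over 25% of the UMIs. Of 13 genes on the A1 list 4 were measured, and all 4 were beyond 1.5-fold (median 1.5). H2-D1 was at 247 against 127 CPM, Psmb8 at 112 against 46.1, Srgn at 79.6 against 19.2, and C3, the complement component used to mark these astrocytes, at 57.6 against 18.2 CPM with all its UMIs in 8 and 6 cells. The list median was 0.41 in classes from clusters, and fewer than 4 members were measured after thinning, in the largest cluster, without doublets or without each gene's largest cell. Gfap, the filament protein of reactive astrocytes, was at 324 against 263 CPM (1.23, 1.04 to 1.45). Lcn2, a secreted lipocalin, had 80 of its 102 UMIs in 1 of 7 cells, and Acer3 was at 45 against 13.4 CPM in 41 and 14 cells. Apod, an apolipoprotein, was lower at 205 against 686 CPM (0.29, 0.25 to 0.34), in 27 and 59 cells. Monocyte/macrophage markers (6 and 4 of 9 with a UMI) summed to 54.5 against 19.2 CPM in this class, Saa3-Apoc1 markers (3 of 3) to 317 against 153 and T cell markers (7 and 5 of 10) to 48.2 against 14.4. Their part in the A1 values was not tested. In the largest cluster of each class alone, A1 genes were higher in other classes too. All 6 measured were above the trend in oligodendrocytes, 4 of them beyond 1.5-fold (median 1.30). In ependymal cells 5 of 5 were above and 2 beyond (median 0.76). Endothelial cells went the other way, with 1 of 7 above, 1 beyond 1.5-fold lower and a median of -0.40. In the other classes with at least 4 measured, medians lay between -0.24 and 0.06.

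The smaller classes gave few genes, often from single cells. Border macrophages (66 and 61 cells) had 34 of 1082 genes lower (3.14%) and 7 higher (0.647%), and in 29 of the 34 a single cell held over 25% of the UMIs: Anxa1 had 238 of 337 UMIs in 1 cell and Ctsk 81 of 89. Mt2, a metallothionein, was at 246 against 87.1 CPM there. NK cells (113 and 53) had 3 of 822 genes higher (0.365%) and 0 lower (0%), with Eny2 at 226 against 69.6 CPM. Oligodendrocyte precursors (225 and 183) had 3 of 4127 higher (0.0727%) and 8 lower (0.194%), with Ap1s1 at 111 against 42.8 CPM. Neuroblasts (212 and 190) had 6 of 2785 higher (0.215%) and 6 lower (0.215%), with Dnal4 at 78.4 against 25.5 CPM and H2bc18 at 43.3 against 139 CPM, while Pcp4 had 58 of 105 UMIs in 1 cell. H2ac24, a histone gene, was a named higher gene in 3 of these classes, with 55 of 111 UMIs in 1 border macrophage (ratio 0.817 after thinning), 83 of 120 in 1 NK cell and 183 of 350 in 1 precursor.

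Some genes differed in the same direction in many classes. Brd1, a chromatin scaffold protein, was lower beyond 1.5-fold in 10 of 10 classes that measured it, with ratios from 0.107 to 0.270, and was at 14.2 CPM over all cells against 86.8, 54.5 in MAPS and 60.2 in IL-4 C1q EV+MAPS. Pmepa1, an inhibitor of TGF-beta signalling, was lower in 8 of 11 classes, Csnk2a2, a casein kinase subunit, in 6 of 9 and Qk in 5 of 11. Saa3 was higher in 9 of 9 classes and at 1152 against 222 CPM over all cells, Ccl5 in 8 of 12 (1570 against 589 CPM) and Cd74 in 5 of 12 (3246 against 2180 CPM). In oligodendrocytes Saa3 was at 45 against 8.52 CPM and in endothelial cells at 53.6 against 8.18 CPM, beside the larger share of Saa3-Apoc1 cells in the same library. The part of free RNA from those cells in the Saa3, Ccl5 and Cd74 values of other classes was not tested. The immunoglobulin gene Igkc was also higher in 6 of 10 classes, and S100a9 in 5 of 5 (231 against 45.2 CPM over all cells). Haemoglobin genes were lower: Hba-a1 and Hba-a2 each in 6 of 12 classes and Hbb-bs in 5 of 13. Over all cells Hba-a1 was at 906 against 1562 CPM. The part of free RNA in these values was not tested either.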

How the data were processed

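Droplet 3′ libraries (10x Genomics v3) were deposited by the authors as filtered matrices of raw UMI counts for 55357 genes. The file headers name Cell Ranger 8.0.1, while GRCm39, Seurat 4.1.0, bcl2fastq 5.0.1 and Cell Ranger 7.0.0 stand in the submitters' processing notes. The members, gene lists and rules were chosen with earlier results of these data known, and the scoring rule of the marker gates was written with the data at hand. A cell entered a class with at least 2 of its markers and a score of at least 0.3 times the class's typical score; cells with a second lineage above 0.5 of the top score, or with another class of the same lineage above 0.8 of it, were left out. Marker scores were scaled on IL-1a TNFa C1q EV+MAPS and UT EV+MAPS only and then applied to MAPS and IL-4 C1q EV+MAPS. UMIs were summed per class and library and scaled to 1000000. Log2 ratios used a pseudocount of 0.5 UMIs. Ratios carry exact conditional binomial intervals, shares Clopper-Pearson intervals. The length trend joined the medians of 20 groups of genes by transcript length (GENCODE annotation of GRCm38, matched by gene ID for 94.1% of genes), which gives lengths only. Named genes were the first 4 (6 larger classes) or first 2 (other classes) on each side by the adjusted bound nearest 1, leaving out mitochondrial, ribosomal, haemoglobin, immunoglobulin and sex-linked genes, markers of other classes, genes without a symbol of their own and genes higher in all other cells; from a list, the 4 largest. Alternatives were TMM factors (edgeR 4.0.16), no length condition, no UMI filter, thinning to the UMI minimum, a minimum of 500, Leiden clusters (scanpy 1.11.5) as classes, and removal of scrublet doublets (760 cells, 5.07%, and 475, 4.31%). The last alternatives were chosen after seeing the data: the largest cluster of each class alone, and each gene without its largest cell. The comparison was also run on simulated class sums with known ratios, drawn as independent counts. That setting holds no UMIs clumped in single cells and no spread between mice, so it cannot show errors from either.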

Additional observations from a re-analysis of the deposited data

Results flagged for a closer look

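The interferon list stood in opposite directions in different classes of the same 2 libraries. Its median log2 ratio was -1.11 in endothelial cells, 0.669 in oligodendrocytes and 1.59 in ependymal cells. With 1 library a group the difference between these classes was not tested.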

How the results depend on the processing

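No paired analysis was possible because each group is 1 library. Over 10 alternatives 451 values were recomputed, of which 327 stayed within the tolerance (1.5 times a count, 0.2 in log2 for a list median, the counting interval for a share), 123 moved and 1 reversed. TMM factors moved 0 of 50 beyond the tolerance. For list medians this follows from the length trend re-centring each ratio. Gene counts also depend on the ratio before that division, which TMM factors do shift. Counts of genes beyond 1.5-fold moved most, and are given as higher and lower. Without the length condition microglia had 37 lower, T cells 22 lower and oligodendrocytes 18 lower. Without the UMI filter microglia had 54 and 44, monocytes and macrophages 84 higher, Saa3-Apoc1 cells 37 lower, T cells 42 lower, endothelial cells 26 and 73, and oligodendrocytes 55 and 24. After thinning to the UMI minimum these were 12 and 12 in microglia, 10 and 17 in monocytes and macrophages, 10 and 6 in Saa3-Apoc1 cells, 12 higher in T cells, 8 and 28 in endothelial cells, and 7 and 7 in oligodendrocytes. With classes from clusters they were 47 and 35 in microglia, 104 higher in monocytes and macrophages, 20 higher in T cells and 22 higher in endothelial cells. In the largest cluster alone they were 8 and 13 in microglia, 14 higher in Saa3-Apoc1 cells, 9 and 7 in T cells, 9 higher in endothelial cells and 6 lower in oligodendrocytes. Interferon medians were 0.308 in thinned oligodendrocytes, -0.442 in monocytes and macrophages from clusters, and in ependymal cells 1.1 without the UMI filter, 1.92 thinned, 1.32 from clusters and 2.01 without each gene's largest cell. They kept their sign in endothelial, oligodendrocyte and ependymal cells under all alternatives that gave a value. In border macrophages the sign changed, from 0.26 to -0.39 in the largest cluster and -0.40 in classes from clusters. In astrocytes the median was 0.22 without called doublets, -0.09 without each gene's largest cell and -0.78 in classes from clusters. A minimum of 500 UMIs gave ratios of shares of 1.55 for peripheral leukocytes and 0.645 for vascular cells. The length trend of the choroid plexus, longest minus shortest group, turned from -0.262 to 0.0351 after thinning. The cause of these moves was not tested beyond the fewer UMIs and cells that thinning and single clusters leave. Depth limits the rest: genes below 50 UMIs in a class were not read, and 9 of the 22 classes held too few cells for a comparison of genes.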
